A study of Arabidopsis thaliana with 22 samples.

Results

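Transcript levels in seedlings of wild-type *Arabidopsis thaliana* (Col-0) after 6 h in 150 mM NaCl (WT 6 h, 3 libraries) were compared with those before NaCl treatment (WT 0 h, 2 libraries). These libraries were taken by the genotype and time point in their labels, and they are 5 of 22 in a series that also covers 24 and 72 h and *lrx345*, a triple mutant of the cell wall leucine-rich repeat extensin genes *LRX3*, *LRX4* and *LRX5*. All seedlings were 10 days old, and their RNA was extracted with Trizol and sequenced by Illumina as pairs of reads. No library of seedlings kept for 6 h without NaCl was analysed here, so NaCl treatment cannot be told apart from elapsed time, handling or time of day. The methods name biological replicates. Of the 33602 genes in the count table, 21831 had enough counts to be tested, and these genes are the members of the comparison. The total of counted fragments ran between 10687052 and 13757123 per library. Transcript levels are given as FPKM, fragments scaled to exon length and to the library size after TMM scaling, and the values of single libraries are given as replicates 1, 2 and 3 of WT 6 h, against replicate 1 and the unnumbered library of WT 0 h, whose number differs between the sample label (2) and the count table (3). A log2 fold change is WT 6 h minus WT 0 h, with its standard error (SE) and the p of edgeR's quasi-likelihood test, adjusted by Benjamini-Hochberg over the 21831 genes, and a gene was taken as raised or lowered at an adjusted p under 0.05. Replicate 3 of WT 6 h stood apart from the others. Its counts differed from those of replicates 1 and 2 with a chi-square per degree of freedom of 7.32 and 6.08, while replicates 1 and 2 differed with 2.46 and the libraries of WT 0 h with 2.73, where counting noise alone gives a value near 1.

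NaCl imposes an osmotic stress, because water is held back outside the root, and an ionic stress, because sodium enters the cells. Osmotic stress raises abscisic acid (ABA), which binds receptors of the PYR/PYL family. The bound receptors block clade A protein phosphatases 2C (PP2C), which frees SnRK2 kinases to activate bZIP factors of the ABF group at promoters that carry the ABA-responsive element (ABRE). A second route runs through CBF and DREB2 factors, which bind the dehydration-responsive element (DRE). Sodium is exported by SOS1 and stored in vacuoles by NHX antiporters, proline and raffinose sugars act as compatible solutes, and growth slows.

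After 6 h of NaCl, 4205 genes were raised, 19.3% of all genes tested, and 4531 were lowered, 20.8%. Without replicate 3 of WT 6 h, 3748 were raised and 3904 lowered. Most of these changes were small, with a median log2 fold change of 0.72 among the raised and -0.66 among the lowered genes, beside -0.02 over all genes tested. A change of more than 2-fold was reached by 1500 raised genes (6.87%) and 1273 lowered genes (5.83%). Large changes were more often rises, since more than 4-fold changes were found for 648 raised and 352 lowered genes, or for 592 and 347 when genes without a count in a group were set against a floor of 3 counts per library of that group. The libraries of WT 6 h and WT 0 h did not overlap in 4171 of the raised and 4521 of the lowered genes, beside 63.9% of all genes tested. The 353 genes raised more than 8-fold (285 with genes without a count at that floor) had a median level of 4.28 FPKM at 6 h, against 0.144 FPKM at 0 h, and 85 raised genes had no count at 0 h. These 353 genes were also short and simple, with a median exon length of 1158 bases and a single exon in 34.3% of them, beside 1518 bases and 18.6% over all genes tested. Genes lowered more than 2-fold had a single exon in 30.2%.

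**Figure D1:**
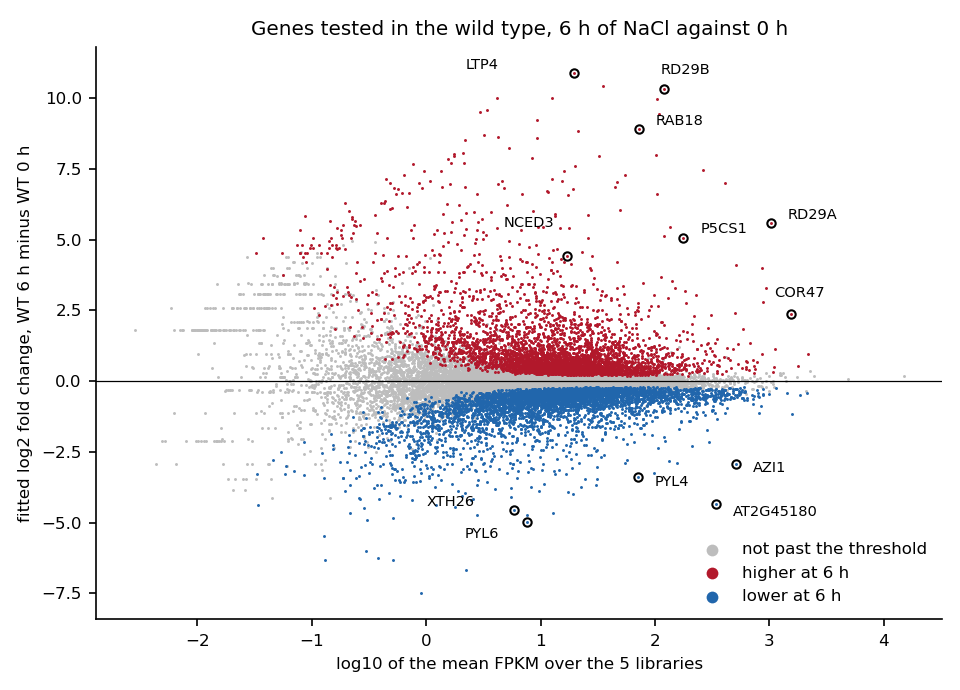
Fitted log2 fold change, WT 6 h minus WT 0 h (vertical axis), against the log10 of the mean FPKM over the 5 libraries (horizontal axis) for 21744 genes. Another 87 tested genes had no count in these 5 libraries and are not drawn. Points are genes, in red (higher at 6 h) or blue (lower at 6 h) where the adjusted p is under 0.05. Among the labelled genes, *LTP4*, *RD29B* and *RAB18* stand highest, and *PYL6*, *XTH26* and AT2G45180 lowest. Some genes without a label lie lower, such as AT5G41300 at -6.27. Fitted values of genes with few counts in a group depend on the prior count.

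The 12 largest rises among genes with a mean count of at least 50 included several genes for protective proteins, which are given first. The largest fitted change was that of *LTP4* (10.9). Late embryogenesis abundant (LEA) proteins and dehydrins are small hydrophilic proteins that shield membranes and enzymes during water loss. *LEA4-5* had 195, 200 and 145 FPKM at 6 h, against 0.335 and 0.164 FPKM at 0 h, a log2 fold change of 9.43 (SE 0.34, adjusted p = 1.72e-15). *RD29B*, a hydrophilic protein gene, had 180, 180 and 242 FPKM at 6 h, against 0.235 and 0.0658 FPKM at 0 h (10.34, SE 0.45, adjusted p = 2.43e-14, or 11.47 without replicate 1 and 9.71 without the unnumbered library of WT 0 h). The dehydrin gene *RAB18* had 118, 131 and 116 FPKM at 6 h, against 0.325 and 0.159 FPKM at 0 h (8.91, SE 0.36, adjusted p = 9.65e-15). In all 3 genes the lowest library at 6 h lay far above the highest at 0 h, but the choice of the 12 required libraries that do not overlap. AT3G17520 and *LEA7*, 2 further LEA genes, had 1 and 4 counts at 0 h, and their counts scaled to library size were 1790 times (exact 95% counting interval 321 to 70700) and 1080 times (420 to 3950) as high at 6 h. *LEA7* overlaps a gene on the opposite strand, and the counts do not use strand. *HAI2*, a PP2C gene, was 793 times as high on 1 count at 0 h (142 to 31400). *TSPO*, annotated as like a tryptophan-rich sensory protein, was 525 times as high on 2 counts (145 to 4340). Such intervals cover counting error only. The remaining 5 had no count at 0 h and reached at least 94.9-fold (*LTP4*, a lipid transfer protein), at least 50.8-fold (AT3G03341, annotated as a cold-regulated protein), at least 50.3-fold (*CYP715A1*, a cytochrome P450), at least 38.2-fold (AT2G26380, a leucine-rich repeat protein) and at least 36.5-fold (AT5G24080, a protein kinase) above a floor of 3 counts per library at 0 h.

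By the gain in FPKM, the 6 leading genes were mostly cold-responsive (COR) and dehydrin genes that already had 34.0 FPKM or more before treatment. *RD29A* had 1611, 1590 and 1850 FPKM at 6 h, against 34.0 and 35.7 FPKM at 0 h (5.59, SE 0.26, adjusted p = 6.23e-14). *COR47*, a dehydrin gene, had 2461, 2342 and 2022 FPKM at 6 h, against 425 and 452 FPKM at 0 h (2.37, SE 0.21, adjusted p = 2.94e-09). *ERD10*, its neighbour on chromosome 1, had 1502, 1431 and 1476 FPKM at 6 h, against 141 and 159 FPKM at 0 h (3.29, SE 0.16, adjusted p = 2e-13). None of these libraries overlapped between the time points. *COR413-PM1*, a plasma membrane protein gene, was raised by 2.81 (SE 0.20, adjusted p = 8.71e-11), and AT1G09310, a protein of unknown function, had the smallest fold of the 6 largest gains, with 2676 ± 291 FPKM at 6 h (SD, n = 3) and 1368 ± 245 FPKM at 0 h (SD, n = 2). *KIN2* had 1738, 1620 and 741 FPKM at 6 h, against 93.8 and 76.0 FPKM at 0 h, so replicate 3 was far below the others (4.01, SE 0.31, adjusted p = 3.51e-10, or 4.31 without it). *KIN1*, the adjacent gene, had 876, 840 and 332 FPKM at 6 h, against 3.92 and 6.65 FPKM at 0 h. *KIN1* and *KIN2* are near copies of each other, and fragments that fit both were not counted, so the level of each is uncertain.

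As lists, 16 of 17 COR, KIN and RD genes were raised and none lowered (median log2 fold change 4.01), as were 6 of 9 dehydrin genes tested of 10 (median 2.37) and 9 of 11 other LEA genes (median 4.23, or 3.59 with *EM1*, which had no count at 0 h, at its bound). *RCI2B* was the gene of the first list that did not pass the threshold, with 94.0, 103 and 60.04 FPKM at 6 h, against 67.5 and 55.0 FPKM at 0 h, which overlap. *SAG21* was the only lowered LEA gene, with 515, 478 and 483 FPKM at 6 h, against 780 and 770 FPKM at 0 h (-0.65, SE 0.12, adjusted p = 0.000124). It is the most abundant of the LEA list at 0 h, and it lay below its level at 0 h in every library at 6 h. Together, the 38 genes of these 3 lists took 2.06, 1.98 and 1.85% of all counted fragments at 6 h, against 0.425 and 0.423% at 0 h. The share therefore was more than 4 times as high in every library at 6 h. Several of the strongest genes lie side by side. Of the 353 genes raised more than 8-fold, 22 pairs were direct neighbours in the genome, among them *RD29B* and *RD29A*, *KIN1* and *KIN2*, *COR15B* and *COR15A*, *LTP4* and *LTP3*, *LTI30* and *XERO1*, and the row of *CBF2*, *CBF3* and *CBF1*. These pairs were picked out after their values were seen.

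The 250 bases upstream of 5 genes are shown, 4 strongly raised genes with the motifs that were then counted over all genes and 1 lowered gene without them. The *RD29B* gene lies at chr5:21237056-21239529 and *RD29A* downstream of it at chr5:21240849-21243613, both on the + strand, and *PYL6* at chr2:16844864-16845934 on the - strand. The sequences were read from the RefSeq genome sequence of TAIR10.1 at the gene starts in the count table, 5′ to 3′ on the strand of the gene. Capitals mark a match on either strand to ACGTGNC, the ABRE letters, or to CCGAC, the core of the DRE. *RD29B* (chr5:21236806-21237055, + strand) holds 3 ABRE matches and 1 DRE match, *LEA4-5* (chr5:2090431-2090680, - strand) 2 and 1, and *RD20*, a calcium-binding caleosin of oil bodies (chr2:14146472-14146721, - strand), 2 and none, both within a palindrome that matches once on each strand. *RD29A* (chr5:21240599-21240848, + strand) holds 1 ABRE match and 3 DRE matches. *PYL6* (chr2:16845935-16846184, - strand), the receptor gene with the largest fall, holds no match to either in this window.
RD29B: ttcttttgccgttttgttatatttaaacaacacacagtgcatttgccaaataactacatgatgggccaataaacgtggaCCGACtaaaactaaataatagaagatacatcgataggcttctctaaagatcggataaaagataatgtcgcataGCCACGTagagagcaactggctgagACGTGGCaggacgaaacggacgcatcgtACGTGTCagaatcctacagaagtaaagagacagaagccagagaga
LEA4-5: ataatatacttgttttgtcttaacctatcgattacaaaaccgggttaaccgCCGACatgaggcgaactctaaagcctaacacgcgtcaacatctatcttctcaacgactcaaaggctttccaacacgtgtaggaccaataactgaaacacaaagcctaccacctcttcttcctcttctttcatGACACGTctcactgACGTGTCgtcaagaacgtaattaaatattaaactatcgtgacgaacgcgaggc
RD20: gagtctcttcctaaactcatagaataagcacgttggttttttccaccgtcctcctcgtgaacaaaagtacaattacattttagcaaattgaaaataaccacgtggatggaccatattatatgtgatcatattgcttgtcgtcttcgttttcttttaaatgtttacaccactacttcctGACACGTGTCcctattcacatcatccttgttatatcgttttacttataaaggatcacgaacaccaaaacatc
RD29A: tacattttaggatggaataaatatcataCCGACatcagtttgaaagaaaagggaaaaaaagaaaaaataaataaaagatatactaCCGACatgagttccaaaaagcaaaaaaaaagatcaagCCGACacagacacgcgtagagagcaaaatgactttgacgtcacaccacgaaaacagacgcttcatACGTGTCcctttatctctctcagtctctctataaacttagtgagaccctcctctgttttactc
PYL6: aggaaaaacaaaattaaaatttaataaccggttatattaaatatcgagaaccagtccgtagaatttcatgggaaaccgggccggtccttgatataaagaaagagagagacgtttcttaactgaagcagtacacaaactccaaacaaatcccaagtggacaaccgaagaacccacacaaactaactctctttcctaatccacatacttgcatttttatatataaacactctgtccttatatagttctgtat

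Over the window of 250 bases before to 50 bases after the gene start, the ABRE letters were found in 12.4% of the promoters of 21714 genes tested. They were found in 24.7% of the 1500 genes raised more than 2-fold, in 30.6% of the 353 raised more than 8-fold and in 544 of 2705 raised less than 2-fold. Among 1268 genes lowered more than 2-fold the share was 7.02%, and among genes not past the threshold it was 10.7%. Of the 12 largest rises, 7 held a match, and of the 12 largest falls none did. The share of genes raised more than 2-fold went with the number of matches: it was 5.94% of 19031 genes with none, 12.1% of 2063 genes with 1, 88 of 499 genes with 2 and 26.4% of 121 genes with 3 or more. The share lowered more than 2-fold was 6.2%, 3.83%, 2.0% and 0 of 121 in the same order. The DRE core was found in 17.7% of all promoters, 18.9% of those raised more than 2-fold and 11.4% of those lowered more than 2-fold, and in 6 of the 12 largest rises and none of the 12 largest falls. With 0, 1, 2 and 3 or more DRE matches, the raised share was 6.81%, 7.26%, 7.74% and 9.76%, and the lowered share 6.29%, 4.04%, 2.09% and 1.22%. These shares are a description, and a match is not a site that was shown to be bound.

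**Figure D2:**
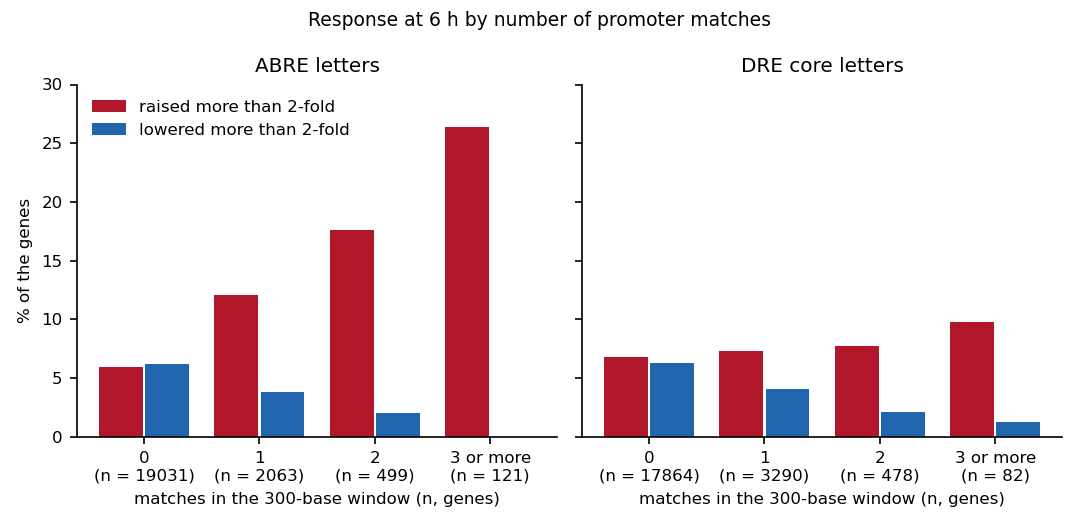
Share of genes raised (red) or lowered (blue) more than 2-fold at 6 h, in % (vertical axis from 0), by the number of ABRE or DRE core matches in the window of 300 bases around the gene start, with the number of genes under each pair of bars. The raised share runs up to 26.4% with 3 or more ABRE matches, beside 9.76% with 3 or more DRE matches.

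Genes of ABA synthesis rose and genes of ABA perception fell. Of 8 ABA biosynthesis genes tested of 10, 6 were raised and none lowered (median log2 fold change 1.29). *NCED3*, the dioxygenase that limits ABA synthesis under stress, had 25.98, 26.8 and 29.2 FPKM at 6 h, against 1.43 and 1.09 FPKM at 0 h (4.43, SE 0.24, adjusted p = 8.67e-13). *ABA1*, the zeaxanthin epoxidase upstream of it, had 75.4, 76.1 and 85.8 FPKM at 6 h, against 19.9 and 21.8 FPKM at 0 h (1.92, SE 0.13, adjusted p = 6.89e-11). No library at 6 h overlapped one at 0 h in these genes. *AAO3*, the aldehyde oxidase of the last step, was raised by 0.92 (SE 0.10, adjusted p = 2.21e-07), and *NCED2*, with 4 counts at 0 h, was 32.6 times as high at 6 h (exact 95% counting interval 12.5 to 121). Of 7 genes of ABA breakdown and conjugation, 4 were raised, and 2 without the unnumbered library of WT 0 h. The ABA 8′-hydroxylase genes *CYP707A1* (1.87, SE 0.18, adjusted p = 1.42e-08), *CYP707A3* (1.56, SE 0.44, adjusted p = 0.00654, lost without the unnumbered library) and *CYP707A4* (1.24, SE 0.27, adjusted p = 0.000818) were among them, with *BGLU18* (0.46), which frees ABA from its glucose ester. *UGT71C5*, which attaches glucose to ABA, was lowered by -0.43 (SE 0.13, adjusted p = 0.00898), a call lost without replicate 1 of WT 0 h.

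Of 9 PYR/PYL receptor genes tested of 14, 6 were lowered and 1 raised (median -0.96). The fall was deepest for *PYL6*, with 0.716, 0.580 and 0.390 FPKM at 6 h, against 16.8 and 19.5 FPKM at 0 h (-4.97, SE 0.22, adjusted p = 4.38e-14). *PYL4* was the most abundant receptor gene before treatment, with 15.4, 14.1 and 14.5 FPKM at 6 h, against 145 and 166 FPKM at 0 h (-3.40, SE 0.11, adjusted p = 4.12e-16). *PYL5* (-2.75, SE 0.15, adjusted p = 7.48e-13) and *PYL8* (-0.96, SE 0.10, adjusted p = 3.08e-08) were lowered too, as were *PYR1* (-1.49) and *PYL1* (-0.86). The exception was *PYL7*, with 10.2, 8.98 and 10.7 FPKM at 6 h, against 5.17 and 5.18 FPKM at 0 h (0.94, SE 0.16, adjusted p = 4.15e-05). The sum over the 9 receptor genes was 139.5 FPKM at 6 h, against 439.4 FPKM at 0 h.

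The PP2C genes, whose products hold the pathway off, moved the other way. All 8 tested of 9 clade A members were raised, each more than 2-fold (median 3.23). *HAI1* had 38.9, 44.6 and 44.0 FPKM at 6 h, against 0.704 and 0.731 FPKM at 0 h (5.87, SE 0.23, adjusted p = 7.77e-15). *ABI1* had 130, 135 and 118 FPKM at 6 h, against 25.98 and 25.8 FPKM at 0 h (2.31, SE 0.10, adjusted p = 5.77e-14), and *PP2CA* had 78.0, 82.0 and 86.4 FPKM at 6 h, against 9.59 and 9.55 FPKM at 0 h (3.10, SE 0.13, adjusted p = 1.37e-14). The sum over these 8 genes was 413.6 FPKM at 6 h, against 66.98 FPKM at 0 h, so that PP2C transcripts outnumbered receptor transcripts per length at 6 h and the receptors outnumbered them at 0 h. The SnRK2 kinase genes changed less: 7 of 10 were raised, none lowered, and 2 of them by more than 2-fold (median 0.44). *SNRK2.7* was raised by 1.42 (SE 0.26, adjusted p = 0.000128) and *OST1*, the kinase of stomatal closure, by 0.99 (SE 0.10, adjusted p = 6.91e-08). Of the bZIP genes, 8 of 9 tested of 11 were raised (median 1.12), with *GBF3* at 2.53 (SE 0.10, adjusted p = 6.37e-15), *ABF3* at 2.48 (SE 0.12, adjusted p = 8.45e-14), *ABF2* at 2.12 (SE 0.09, adjusted p = 1.62e-14) and *ABF4* at 0.77 (SE 0.10, adjusted p = 9.54e-07).

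**Figure D3:**
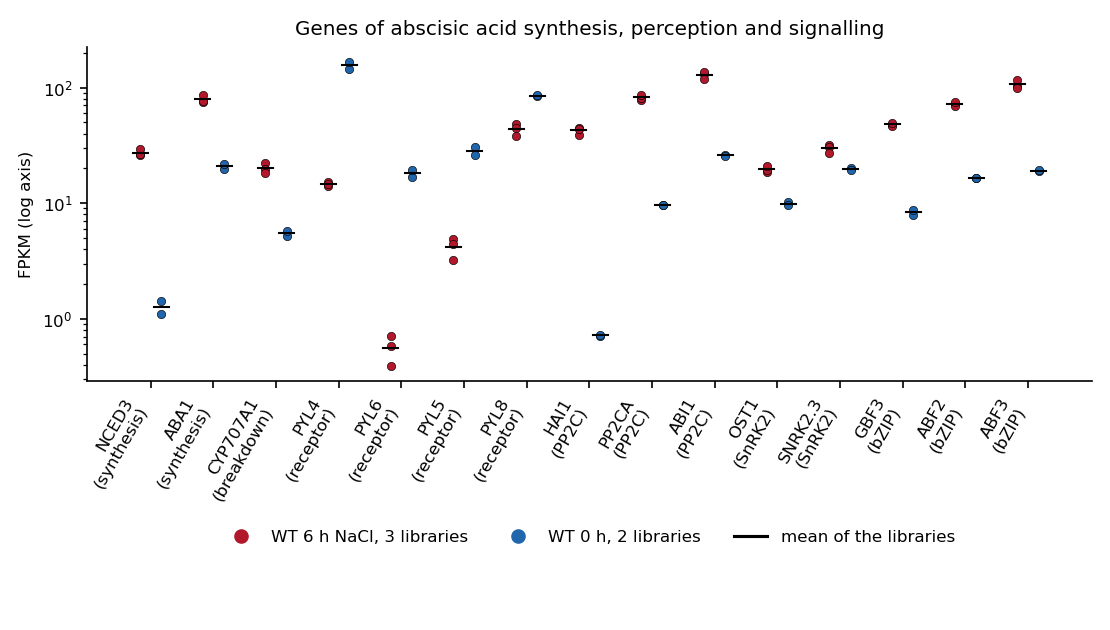
FPKM on a log axis of 15 genes of ABA synthesis, breakdown, perception and signalling (horizontal axis) in the 3 libraries of WT 6 h (red) and the 2 of WT 0 h (blue), with a bar at the mean. The 4 receptor genes lie lower at 6 h and the other genes higher, with no overlap between the time points. *HAI1* reads 42.5 FPKM on average at 6 h and 0.718 FPKM at 0 h.

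Transcription factor genes were raised in several families. All 8 CBF and DREB2 genes tested of 9 passed the threshold (median 4.08, or 3.97 with *DDF1* at its bound) but 5 passed it without replicate 1 of WT 0 h, and 5 without the unnumbered library. *DREB2A*, an activator of drought and heat genes, had 49.6, 40.0 and 47.2 FPKM at 6 h, against 2.60 and 1.68 FPKM at 0 h (4.42, SE 0.34, adjusted p = 4.62e-10). *CBF1* had 4.27, 3.28 and 2.65 FPKM at 6 h, against 0.303 and 0.445 FPKM at 0 h (3.16, SE 0.42, adjusted p = 2.18e-06). *CBF2* was 35.0 times as high at 6 h, on 4 counts at 0 h (13.5 to 130), and *CBF3* 51.7 times, on 1 count (8.98 to 2070). Of the stress NAC genes, 11 of 13 were raised and none lowered (median 1.72). *NAC019* was raised by 4.75 (SE 0.47, adjusted p = 2.91e-08), *RD26* by 3.45 (SE 0.15, adjusted p = 2.43e-14), *NAC032* by 2.89 (SE 0.22, adjusted p = 2.7e-10) and *ATAF1* by 2.37 (SE 0.16, adjusted p = 5.93e-11).

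Stress MYB genes were raised in 8 of 10 cases (median 2.64). *MYB41*, a regulator of suberin, was raised by 4.22 (SE 0.30, adjusted p = 8.94e-11), *MYB112* by 3.85 (SE 0.32, adjusted p = 1.78e-09), or 3.25 without replicate 1 and 4.95 without the unnumbered library of WT 0 h, *MYB74* by 2.81 (SE 0.17, adjusted p = 5.62e-12) and *MYB96*, a regulator of wax, by 2.02 (SE 0.12, adjusted p = 7.7e-12). The guard cell factor *MYB60* was the lowered member, by -0.62 (SE 0.18, adjusted p = 0.00711), a call lost without replicate 1 of WT 0 h. Of the class I HD-ZIP genes, 7 of 11 tested of 12 were raised (median 1.15), with *HB-7* and *HB-12*, 2 brakes on growth under drought, at 3.69 (SE 0.17) and 3.31 (SE 0.22), *HB40* at 3.09 (SE 0.34) and *HB21* at 4.41 (SE 0.47), or 5.88 without replicate 1 and 3.69 without the unnumbered library of WT 0 h. *HB20* and *HB23* were lowered, by -0.74 and -0.84. Of the ZAT and AZF zinc finger genes, 7 of 10 were raised (median 1.71). *ZAT12* had 27.8, 22.3 and 13.8 FPKM at 6 h, against 3.17 and 2.75 FPKM at 0 h (2.85, SE 0.53, adjusted p = 0.000133), and *AZF2* was raised by 2.08 (SE 0.27, adjusted p = 1.19e-06). *AZF1* was the lowered member, by -0.82 (SE 0.20, adjusted p = 0.00261).

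**Figure D4:**
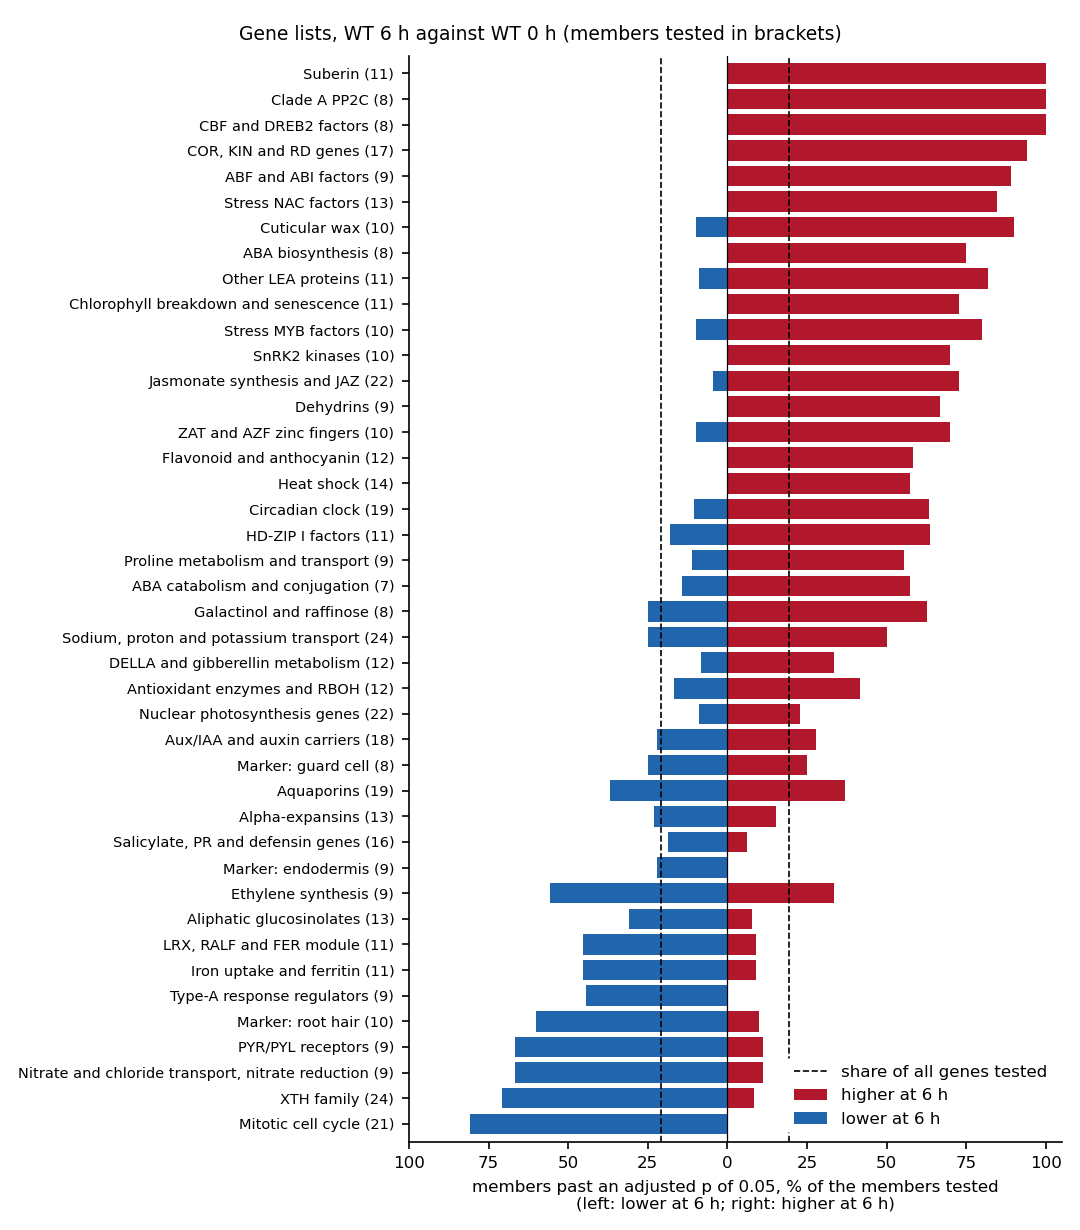
Share of the tested members of 42 gene lists that passed an adjusted p of 0.05 (horizontal axis, %), to the right (red) where higher at 6 h and to the left (blue) where lower, with the number of members tested in brackets. The dashed lines mark the shares over all genes tested, 19.3% raised and 20.8% lowered. Suberin, clade A PP2C and CBF and DREB2 genes were raised throughout, and 17 of 21 mitotic genes and 17 of 24 XTH genes were lowered.

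Genes for compatible solutes changed in both directions. *P5CS1*, the first enzyme of proline synthesis, had 256, 275 and 339 FPKM at 6 h, against 9.98 and 7.23 FPKM at 0 h (5.07, SE 0.16, adjusted p = 2.79e-16). *ERD5*, the proline dehydrogenase of mitochondria, had 30.9, 33.6 and 25.1 FPKM at 6 h, against 112 and 108 FPKM at 0 h (-1.88, SE 0.13, adjusted p = 7.23e-11). The libraries of the time points did not overlap in either gene. *P5CS2* was raised by 1.26 (SE 0.09, adjusted p = 1.4e-10) and *P5CDH*, a breakdown enzyme, by 0.70 (SE 0.10, adjusted p = 4.05e-06). With the transporter genes *PROT3* (2.2) and *PROT2* (0.72), 5 of 9 proline genes were raised and 1 lowered (median 0.70). Of 8 galactinol and raffinose genes, 5 were raised and 2 lowered (median 2.06). The galactinol synthase genes *GOLS2* and *GOLS4* were raised by 5.93 (SE 0.35, adjusted p = 4.48e-12) and 4.58 (SE 0.24, adjusted p = 4.63e-13), and *RS5*, a raffinose synthase, by 1.79 (SE 0.11, adjusted p = 6.81e-12), beside *GOLS3* (2.63) and *GOLS1* (2.34). Without the unnumbered library of WT 0 h *GOLS4* was at 5.44. *DIN10* and *SIP2*, annotated as raffinose synthase and seed imbibition proteins, were lowered, and *DIN10* had 15.4, 16.1 and 15.04 FPKM at 6 h, against 115 and 113 FPKM at 0 h (-2.88, SE 0.16, adjusted p = 1.13e-12).

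Ion transport genes changed in both directions. Of 24 sodium, proton and potassium transport genes, 12 were raised and 6 lowered (median 0.32). *NHX2*, a vacuolar sodium and potassium antiporter, had 15.7, 15.2 and 16.8 FPKM at 6 h, against 4.2 and 3.79 FPKM at 0 h (1.99, SE 0.15, adjusted p = 2.29e-10), and the potassium transporter gene *KUP11* had 34.8, 34.2 and 39.5 FPKM at 6 h, against 9.89 and 9.27 FPKM at 0 h (1.92, SE 0.10, adjusted p = 8.9e-13). *GORK*, the outward potassium channel of guard cells and root hairs, was raised by 1.62 (SE 0.15, adjusted p = 5.59e-09). The sodium exporter gene *SOS1* had 9.56, 8.72 and 8.94 FPKM at 6 h, against 6.88 and 7.72 FPKM at 0 h (0.31, SE 0.09, adjusted p = 0.0081), and its kinase *SOS2* was at 5.83 ± 1.3 FPKM at 6 h (SD, n = 3) and 5.78 ± 0.206 FPKM at 0 h (SD, n = 2), which overlap (adjusted p = 0.949). *SKOR*, which loads potassium into the xylem, had 0.430, 0.958 and 0.322 FPKM at 6 h, against 6.53 and 6.03 FPKM at 0 h (-3.48, SE 0.32, adjusted p = 7.18e-09). *HKT1*, which withdraws sodium from the xylem, was lowered by -1.34 (SE 0.31, adjusted p = 0.00117), and the channel gene *KAT2* by -1.56 (SE 0.14, adjusted p = 3.88e-09). *SKOR*, *HKT1*, *SOS1* and *SOS2* were chosen after their values were seen.

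Nitrate and chloride genes were mostly lowered, 6 of 9 tested of 10, with 1 raised (median -0.88). *SLAH1*, a subunit of the anion channel that loads chloride into the xylem, had 0.766, 0.780 and 0.367 FPKM at 6 h, against 5.15 and 6.27 FPKM at 0 h (-3.14, SE 0.36, adjusted p = 2.05e-07). *NRT1.5*, which loads nitrate into the xylem, had 41.1, 39.3 and 40.4 FPKM at 6 h, against 128 and 127 FPKM at 0 h (-1.66, SE 0.12, adjusted p = 1.09e-10). Every library at 6 h lay below both at 0 h. The nitrate reductase genes *NIA1* (-1.41, SE 0.12, adjusted p = 2.21e-09) and *NIA2* (-0.79, SE 0.11, adjusted p = 2.53e-06) were lowered as well, and *NRT2.1*, a high-affinity nitrate transporter, was the raised member at a low level, with 3.37, 2.38 and 2.46 FPKM at 6 h, against 0.680 and 0.924 FPKM at 0 h (1.78, SE 0.28, adjusted p = 1.8e-05). Iron uptake genes were also lowered. *IRT1*, the iron transporter of the root epidermis, had 2.02, 1.38 and 1.01 FPKM at 6 h, against 22.9 and 20.98 FPKM at 0 h (-3.87, SE 0.36, adjusted p = 8.05e-09), and the ferric reductase gene *FRO2* was lowered by -2.71 (SE 0.29, adjusted p = 1.09e-07). The ferritin genes *FER3* (-0.76, SE 0.13) and *FER4* (-0.72, SE 0.12), which store iron, were lowered, as was *bHLH39*, a regulator of iron uptake (-1.13), and *FER1* was raised by 0.48 (SE 0.16, adjusted p = 0.0203). In the iron list, 5 of 11 genes were lowered and 1 raised (median -0.72).

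Aquaporin genes, which set the flow of water across membranes, split evenly, with 7 of 19 raised and 7 lowered (median -0.20). *TIP2;3*, a tonoplast aquaporin, had 4.11, 3.88 and 6.28 FPKM at 6 h, against 43.5 and 36.8 FPKM at 0 h (-3.08, SE 0.17, adjusted p = 2.16e-12). *PIP2;4*, a plasma membrane aquaporin, had 6.22, 8.31 and 6.88 FPKM at 6 h, against 35.3 and 34.2 FPKM at 0 h (-2.29, SE 0.16, adjusted p = 9.01e-11). *TIP2;1* and *PIP1;5* were lowered by -1.71 (SE 0.13) and -1.67 (SE 0.13). The largest rise was that of *PIP2;3*, with 71.7, 64.7 and 63.3 FPKM at 6 h, against 24.3 and 21.97 FPKM at 0 h (1.52, SE 0.13, adjusted p = 3.13e-09). The libraries of the time points did not overlap in these genes, yet the sum over the family was 4288 FPKM at 6 h, against 4308 FPKM at 0 h.

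Cell wall genes were lowered in the family of xyloglucan endotransglucosylase/hydrolases (XTH), enzymes that cut and rejoin the xyloglucan chains between cellulose fibres. Of 24 members, 17 were lowered, 11 of them by more than 2-fold, and 2 were raised (median -1.09). *XTH26* had 0.763, 0.243 and 0.686 FPKM at 6 h, against 12.8 and 14.8 FPKM at 0 h (-4.55, SE 0.47, adjusted p = 4.52e-08). *XTH4*, the most abundant member before treatment, had 140, 125 and 109 FPKM at 6 h, against 496 and 611 FPKM at 0 h (-2.15, SE 0.12, adjusted p = 1.46e-12). *XTH15* (-2.60, SE 0.18, adjusted p = 6.88e-11), *XTH17* (-2.73, SE 0.20, adjusted p = 2.31e-10) and *XTH21* (-3.11, SE 0.31, adjusted p = 3.09e-08) were lowered too. *XTH17* has a near copy, *XTH18*, and fragments that fit both were not counted. *XTH31* was raised, with 301, 265 and 332 FPKM at 6 h, against 117 and 158 FPKM at 0 h (1.12, SE 0.17, adjusted p = 8.82e-06), as was *XTH32* (1.19, SE 0.14, adjusted p = 4.49e-07), so *XTH31* was the most abundant of the named members at 6 h and *XTH4* at 0 h. Alpha-expansins loosen the wall. They were lowered in 3 of 13 cases and raised in 2 (median 0.07), near the 20.8% and 19.3% of all genes tested. *EXPA10* was the largest of these, with 146, 146 and 125 FPKM at 6 h, against 22.7 and 21.2 FPKM at 0 h (2.66, SE 0.12, adjusted p = 5.93e-14), and *EXPA17* was raised by 0.94. *EXPA18* was lowered by -1.3, *EXPA14* by -1.13 (SE 0.26, adjusted p = 0.00112) and *EXPA8* by -0.90 (SE 0.18, adjusted p = 0.000362).

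**Figure D5:**
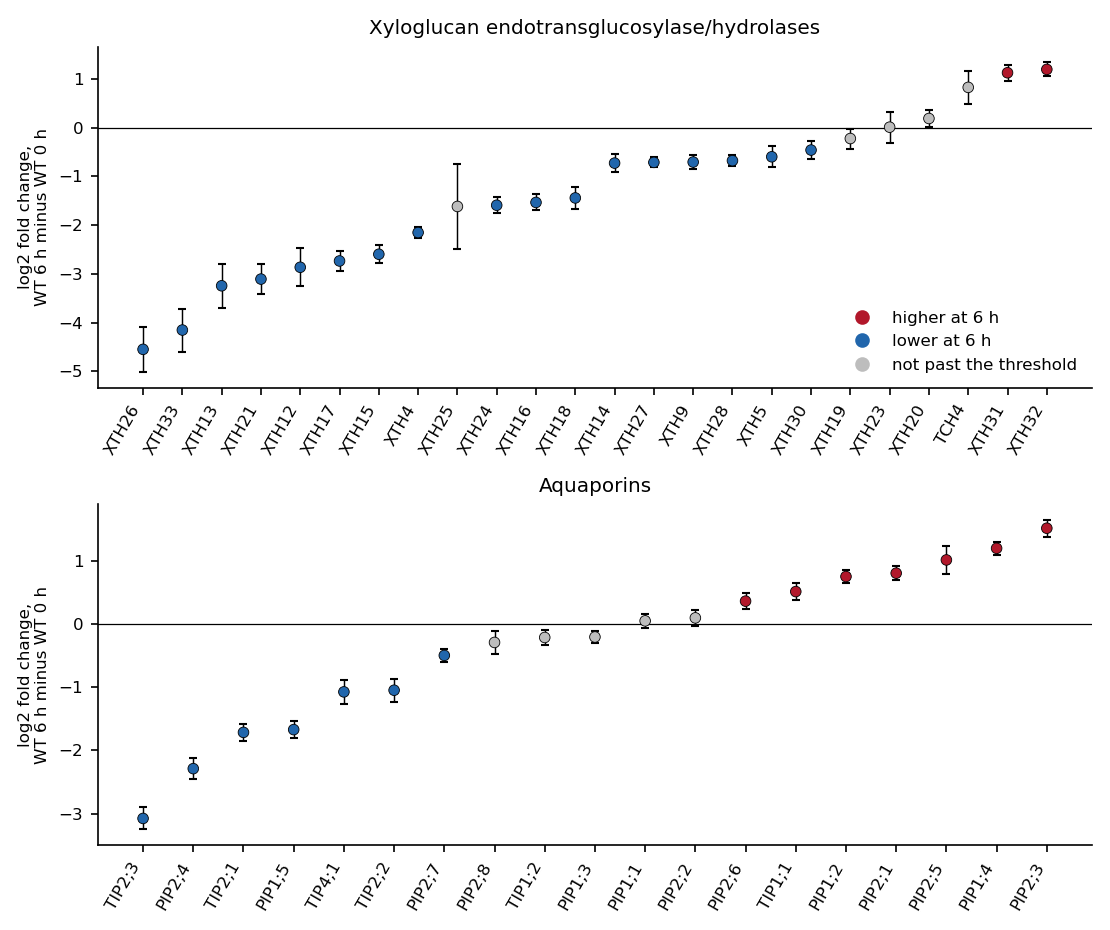
Log2 fold change, WT 6 h minus WT 0 h (vertical axis), of 24 XTH genes (upper panel) and 19 aquaporin genes (lower panel), each in the order of its change. Points are fitted values and bars 1 SE, in red where higher at 6 h, blue where lower and grey where not past the threshold. The XTH genes run down to -4.55 and have 2 red points, and the aquaporins run between -3.08 and 1.52 with as many red as blue points.

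Genes of the LRX, RALF and FER module, through which the wall is sensed, were lowered in 5 of 11 cases and raised in 1 (median -0.28). *LRX3* had 19.7, 20.01 and 23.1 FPKM at 6 h, against 37.4 and 44.8 FPKM at 0 h (-0.97, SE 0.13, adjusted p = 1.58e-06). *THE1*, a receptor kinase of the family of FERONIA, had 14.8, 14.9 and 12.8 FPKM at 6 h, against 31.4 and 29.4 FPKM at 0 h (-1.1, SE 0.11, adjusted p = 2.29e-08). The peptide genes *RALF22* (-0.73, SE 0.11, adjusted p = 1.69e-05), *RALF33* (-0.89, SE 0.22, adjusted p = 0.00253) and *RALF1* (-0.40, SE 0.14, adjusted p = 0.0252) were lowered. *FER* itself had 66.2, 70.8 and 71.9 FPKM at 6 h, against 72.6 and 75.9 FPKM at 0 h, and the difference did not pass the threshold (-0.09, SE 0.09, adjusted p = 0.416). AT4G18670, the raised member (0.42, SE 0.17, adjusted p = 0.0472), lost its call without replicate 3 of WT 6 h and without either library of WT 0 h, and it had 44.5, 44.4 and 64.8 FPKM at 6 h, against 36.0 and 40.3 FPKM at 0 h.

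All 11 suberin genes tested of 12 passed the threshold, 8 of them by more than 2-fold (median 2.24). Suberin is the waxy polyester of the root endodermis and periderm. *KCS2*, which lengthens its fatty acids, had 83.1, 83.4 and 81.3 FPKM at 6 h, against 7.44 and 8.46 FPKM at 0 h (3.38, SE 0.18, adjusted p = 1.1e-12). *ASFT*, the feruloyl transferase, had 97.9, 92.5 and 108 FPKM at 6 h, against 17.3 and 18.98 FPKM at 0 h (2.45, SE 0.15, adjusted p = 8.36e-12). *GPAT5* (3.15, SE 0.21, adjusted p = 2.68e-11) and *CYP86B1* (2.84, SE 0.19, adjusted p = 3.45e-11) were raised as well. Of 10 wax genes tested of 11, 9 were raised and 1 lowered (median 0.85). *CER1*, which makes the alkanes of leaf wax, had 34.8, 30.6 and 45.1 FPKM at 6 h, against 3.90 and 4.34 FPKM at 0 h (3.16, SE 0.25, adjusted p = 4.93e-10), and *CER3* and *KCS1* were raised by 0.99 (SE 0.13) and 1.01 (SE 0.13). *CER4*, which makes primary alcohols, was the lowered member, with 1.1, 1.04 and 1.37 FPKM at 6 h, against 5.09 and 4.73 FPKM at 0 h (-2.06, SE 0.22, adjusted p = 1.15e-07).

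Mitotic genes were lowered in 17 of 21 cases and raised in none, by modest amounts (median -0.59). *CDC20.2*, an activator of the anaphase complex, had 5.42, 5.36 and 6.64 FPKM at 6 h, against 12.4 and 11.6 FPKM at 0 h (-1.05, SE 0.15, adjusted p = 5.96e-06), and it was the only member lowered more than 2-fold. The kinesin gene *HIK* was lowered by -0.90 (SE 0.13, adjusted p = 4.73e-06), *PLE*, a microtubule-binding protein gene, by -0.80 (SE 0.15, adjusted p = 0.000117) and the cyclin gene *CYCB1;2* by -0.68 (SE 0.10, adjusted p = 7.59e-06). The sum over the list was 201.1, 209.8 and 208.4 FPKM at 6 h, against 310.9 and 304.5 FPKM at 0 h. Among the largest losses in FPKM were *AZI1* and *EARLI1*, adjacent genes for lipid transfer-like proteins of the wall. *AZI1* had 158.8, 151.3 and 113.0 FPKM at 6 h, against 940.5 and 1185 FPKM at 0 h (-2.91, SE 0.25, adjusted p = 2.07e-09), and *EARLI1* had 1198, 956 and 1012 FPKM at 6 h, against 2055 and 2662 FPKM at 0 h (-1.16, SE 0.15, adjusted p = 1.07e-06). AT2G45180, of the same protein class, had 57.5, 44.4 and 15.9 FPKM at 6 h, against 728 and 874 FPKM at 0 h (-4.34, SE 0.31, adjusted p = 8.28e-11), and AT2G10940, another of the class, was lowered by -1.13 (SE 0.18, adjusted p = 2.33e-05). *GRP7* (-0.47, SE 0.17, adjusted p = 0.0303), an RNA-binding protein gene under clock control, lost its call without replicate 3 of WT 6 h, where it was at -0.25, and without either library of WT 0 h, and *PYK10* (-0.42, SE 0.13, adjusted p = 0.0101), a glucosidase of root ER bodies that overlaps a gene on the opposite strand, lost it without the unnumbered library of WT 0 h.

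The 12 largest falls among genes with a mean count of at least 50 also included *PYL6*, *XTH26*, *IRT1* and AT2G45180, described above. *MIOX2*, which opens inositol toward wall sugars, had 5.92, 5.45 and 4.69 FPKM at 6 h, against 68.3 and 67.3 FPKM at 0 h (-3.66, SE 0.19, adjusted p = 7.17e-13). AT2G43140, a basic helix-loop-helix factor, had 0.606, 0.695 and 0.727 FPKM at 6 h, against 15.5 and 20.3 FPKM at 0 h (-4.72, SE 0.26, adjusted p = 1.33e-12). The peroxidase gene AT5G19890 was lowered by -4.66 (SE 0.34, adjusted p = 1.88e-10), *GSTF14*, a glutathione transferase, by -3.93 (SE 0.40, adjusted p = 3.76e-08), *CRK30*, a receptor-like kinase, by -3.74 (SE 0.21, adjusted p = 1.9e-12) and AT3G59370, annotated as a vacuolar calcium-binding protein, by -3.65 (SE 0.33, adjusted p = 6.47e-09). AT5G46900 (-3.97, SE 0.25, adjusted p = 1.47e-11) and AT5G46890 (-3.73, SE 0.33, adjusted p = 4.19e-09) are adjacent and code for proteins of the lipid transfer class. Of the genes lowered more than 4-fold, 19 pairs were direct neighbours. A run of 5 genes annotated as thioredoxin superfamily proteins on chromosome 4, AT4G15660, AT4G15670, AT4G15680, AT4G15690 and AT4G15700, was lowered by between -2.89 and -3.79. They were picked out after their values were seen, and they are near copies, so the level of each is uncertain.

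Markers of cell types were examined beside these results. In bulk RNA, fewer cells of a type and less RNA per cell cannot be told apart. Of 10 root hair genes, 6 were lowered and 1 raised (median -0.70), and their summed level was 56.8, 53.3 and 65.5 FPKM at 6 h, against 124 and 133 FPKM at 0 h. *PRP3*, a wall protein of root hairs, had 17.3, 13.8 and 22.6 FPKM at 6 h, against 64.1 and 64.6 FPKM at 0 h (-1.84, SE 0.29, adjusted p = 1.78e-05), and *LRX1*, *LRX2* and *EXPA18* were lowered by -1.27 (SE 0.22), -1.29 (SE 0.19) and -1.3 (SE 0.23). *RHD6*, the factor that starts a root hair, was raised, with 4.68, 4.57 and 3.82 FPKM at 6 h, against 2.98 and 2.21 FPKM at 0 h (0.75, SE 0.23, adjusted p = 0.012). The part of these markers in the falls of *IRT1* and the XTH genes was not tested. Endodermis genes summed to 93.2, 99.6 and 97.5 FPKM at 6 h, against 118 and 112 FPKM at 0 h, with 2 of 9 tested lowered, *CASP2* (-0.52) and *SHR* (-0.43), both of which lost the call without replicate 1 of WT 6 h and without replicate 1 of WT 0 h. The suberin genes rose while none of the endodermis markers did. Guard cell genes summed to 47.6, 51.1 and 43.2 FPKM at 6 h, against 55.4 and 48.2 FPKM at 0 h, which overlap. The raised guard cell genes were *SLAC1* (0.90) and *KAT1* (0.54), and the lowered ones *MYB60* and *HT1* (-0.98). Each of these 4 calls was lost without at least 1 single library: *SLAC1* without replicate 2 or 3 of WT 6 h or the unnumbered library of WT 0 h, *KAT1* without the unnumbered library, *MYB60* without replicate 1 of WT 0 h, and *HT1* without replicate 3 of WT 6 h or either library of WT 0 h. Over all genes tested, 19.3% were raised and 20.8% lowered. Beside these shares, the counts of endodermis and guard cell genes called are no result. Each of the 27 marker genes tested had counts in every library.

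Nuclear photosynthesis genes changed little, with 5 of 22 raised, 3 without the unnumbered library of WT 0 h, and 2 lowered (median 0.13). Their sum was 32110, 33860 and 36010 FPKM at 6 h, against 31290 and 30990 FPKM at 0 h. *LHCB1.1*, a light-harvesting protein gene, was raised (1.32, SE 0.12, adjusted p = 1.24e-08), beside its relatives *LHCB2.1* (0.67), *LHCB2.2* (0.61), *LHCA4* (0.43) and *LHCA2* (0.33), and *RBCS1B* (-1.12, SE 0.15, adjusted p = 1.78e-06) and *RBCS2B* (-0.86, SE 0.12, adjusted p = 5.3e-06), small subunits of Rubisco, were lowered. These belong to near-identical gene copies, so their levels are uncertain. Chlorophyll breakdown and senescence genes were raised in 8 of 11 cases (median 0.92), or in 5 without replicate 2 of WT 6 h or without the unnumbered library of WT 0 h. The chlorophyll catabolism genes *PAO* (1.47, SE 0.15, adjusted p = 3.23e-08), *PPH* (1.12, SE 0.12, adjusted p = 4.74e-08) and *NYE1* (1.17, SE 0.16, adjusted p = 4.05e-06) were among them, and *SAG29*, a sugar transporter of senescing leaves, had 22.5, 20.02 and 24.2 FPKM at 6 h, against 1.43 and 1.56 FPKM at 0 h (3.88, SE 0.27, adjusted p = 5.93e-11). Clock genes bear on the missing untreated control, since they move with the hour of the day. Of 19, 12 were raised, 7 without the unnumbered library of WT 0 h, and 2 lowered, *CHE* (-0.48) and *LUX* (-0.35), neither of them without that library (median 0.53). *CCA1*, a morning gene, had 3.81, 2.99 and 4.24 FPKM at 6 h, against 1.38 and 1.56 FPKM at 0 h (1.33, SE 0.16, adjusted p = 7.58e-07), *ELF4*, an evening gene, was raised by 1.22 (SE 0.18, adjusted p = 1.03e-05), and *LHY*, the close relative of *CCA1*, was at 2.93 ± 0.123 FPKM at 6 h (SD, n = 3) and 3.08 ± 0.215 FPKM at 0 h (SD, n = 2). *CCA1* and *LHY* were thus low at both time points.

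Genes of other hormones are given by list, beside 19.3% raised and 20.8% lowered over all genes tested. Of 22 jasmonate genes, 16 were raised and 1, *JAZ6*, lowered (median 0.67). *LOX2*, the lipoxygenase that starts jasmonate synthesis in leaves, had 422, 352 and 445 FPKM at 6 h, against 112 and 109 FPKM at 0 h (1.88, SE 0.14, adjusted p = 1.82e-10). The repressor genes *JAZ1* (1.22, SE 0.15, adjusted p = 4.64e-07), *JAZ2* (1.16, SE 0.15, adjusted p = 1.4e-06) and *JAZ12* (0.68, SE 0.09, adjusted p = 1.44e-06) were raised. Salicylate, PR and defensin genes mostly stayed under the threshold, with 1 of 16 raised (*SARD1*, 0.68, SE 0.25, adjusted p = 0.0366, a call kept without replicate 2 of WT 6 h and lost without any other single library) and 3 lowered (*WRKY70*, *PR5* and *EDS1*, between -0.43 and -0.87), none of the 3 without the unnumbered library of WT 0 h. *PR1* had 6.14, 3.85 and 1.98 FPKM at 6 h, against 3.31 and 10.3 FPKM at 0 h, which overlap. Ethylene synthesis genes were raised in 3 of 9 cases tested and lowered in 5, or in 3 without either library of WT 0 h (median -0.50). *ACS2* and *ACS6*, synthases of the ethylene precursor, were raised by 3.72 (SE 0.52, adjusted p = 4.81e-06) and 2.16 (SE 0.30, adjusted p = 4.56e-06), and *ACO1*, which makes ethylene from it, was lowered by -1.18 (SE 0.17, adjusted p = 8.67e-06). *ACS8* (2.18) was also raised, and *ACO4* (-0.50), *ACS5* (-1.58) and *ACS7* (-0.77) were also lowered.

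Of 12 gibberellin genes tested of 15, 4 were raised and 1 lowered (median 0.61). The genes for gibberellin-inactivating oxidases *GA2OX6* (1.26, SE 0.17, adjusted p = 3.34e-06), *GA2OX2* (1.12, SE 0.26, adjusted p = 0.0011) and *GA2OX4* (2.14, SE 0.51, adjusted p = 0.00181) and the DELLA repressor gene *RGL3* (1.2, SE 0.25, adjusted p = 0.000423) were raised, and *GA3OX1*, which makes active gibberellin, was lowered by -0.62 (SE 0.17, adjusted p = 0.00563). Of 18 auxin genes tested of 19, 5 were raised, 3 without replicate 1 of WT 0 h, and 4 lowered (median 0.13). The carrier genes *PIN2* and *AUX1* were lowered by -0.92 (SE 0.19, adjusted p = 0.00034) and -0.71 (SE 0.09, adjusted p = 2.27e-06), *PIN3* was raised by 0.55 (SE 0.11, adjusted p = 0.000485), and *IAA30* was raised by 2.09 (SE 0.44, adjusted p = 0.000492), or by 3.4 without replicate 1 and 1.41 without the unnumbered library of WT 0 h. Of the other Aux/IAA repressor genes, *IAA5* (2.4), *IAA19* (0.80) and *IAA2* (0.45) were raised, and *IAA7* (-0.47) and *IAA4* (-0.43) lowered. Beside 19.3% raised and 20.8% lowered over all genes tested, the counts of the auxin list are no result. Of 9 type-A response regulators of cytokinin tested of 10, 4 were lowered, or 2 in each fit without 1 library other than replicate 2 of WT 6 h, and none raised (median -0.44). *ARR16* had 6.10, 4.44 and 4.96 FPKM at 6 h, against 12.6 and 13.5 FPKM at 0 h (-1.32, SE 0.26, adjusted p = 0.000227), and *ARR7* was lowered by -0.64 (SE 0.16, adjusted p = 0.00218), beside *ARR3* (-0.98) and *ARR6* (-0.44).

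Heat shock genes were raised in 8 of 14 cases and lowered in none (median 1.42). *HSFA6B*, a heat shock factor that responds to ABA, had 97.6, 86.1 and 63.1 FPKM at 6 h, against 1.26 and 1.23 FPKM at 0 h (6.04, SE 0.31, adjusted p = 5.48e-13), and the chaperone gene *HSP70* had 89.98, 86.2 and 80.5 FPKM at 6 h, against 14.7 and 14.1 FPKM at 0 h (2.57, SE 0.15, adjusted p = 5.09e-12). Flavonoid and anthocyanin genes were raised in 7 of 12 cases tested of 14 (median 0.49). *PAP1*, the MYB factor of anthocyanin, had 22.6, 21.8 and 28.4 FPKM at 6 h, against 1.41 and 0.998 FPKM at 0 h (4.32, SE 0.27, adjusted p = 9.47e-12), and the late enzymes *DFR* and *LDOX* were raised by 1.72 (SE 0.27, adjusted p = 2.11e-05) and 1.59 (SE 0.29, adjusted p = 0.000133). Of 13 genes of aliphatic glucosinolates, sulphur compounds of defence, 4 were lowered and 1 raised (median -0.18). *MAM3* (-1.51, SE 0.12, adjusted p = 5.8e-10), *CYP79F2* (-1.28, SE 0.14, adjusted p = 1.32e-07), *BCAT4* (-0.73) and *SOT18* (-0.33), enzymes of their synthesis, were lowered, and the MYB factor gene *MYB29* was raised by 0.84 (SE 0.16, adjusted p = 0.000197). Of 12 antioxidant and NADPH oxidase genes, 5 were raised, 3 without replicate 1 of WT 0 h, and 2 lowered, *FSD1* (-0.34) and *RBOHC* (-0.31), neither of them without the unnumbered library (median 0.17). The catalase gene *CAT2* was raised by 0.49 (SE 0.12, adjusted p = 0.00154), beside *CAT1* (0.42), *APX2*, AT1G19230 (0.86) and *RBOHF* (0.31), and *RBOHD*, the main oxidase of stress signalling, had 28.2, 23.2 and 28.1 FPKM at 6 h, against 28.5 and 30.8 FPKM at 0 h (-0.16, SE 0.11, adjusted p = 0.261).

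The summed levels of several raised lists were lower at 24 and 72 h than at 6 h. The summed mean FPKM of the COR, KIN and RD genes was 765 at 0 h, 7548 at 6 h, 1847 at 24 h and 1100 at 72 h, and that of the dehydrin genes was 2923, 8053, 2212 and 2586 at these times. The PP2C genes gave 66.98, 413.6, 117.2 and 147.1 FPKM, and the suberin genes 163.1, 473.3, 211.0 and 167.0 FPKM. Further lists with this course included the bZIP genes (97.38, 310.0, 120.3 and 136.2 FPKM) and the wax genes (579.9, 1046, 652.0 and 593.3 FPKM). The raised stress NAC list (191.4, 466.3, 312.1 and 565.4 FPKM) and the ZAT and AZF list (49.32, 130.2, 82.9 and 278.1 FPKM) did not show this. The galactinol and raffinose sum was not raised at 6 h, with 184.0, 161.2, 182.1 and 172.3 FPKM, although 5 of its 8 genes were. The sums of 2 lowered families were higher at 24 h than at 6 h. The XTH genes summed to 1476 FPKM at 0 h, 882.7 at 6 h, 1459 at 24 h and 1714 at 72 h, and the receptor genes to 439.4, 139.5, 271.0 and 251.7 FPKM. The sum of the mitotic genes stayed below its level at 0 h, with 307.7, 206.4, 213.4 and 170.8 FPKM, and the CBF and DREB2 genes were about as high at 72 h as at 6 h, with 5.864, 68.06, 31.03 and 61.01 FPKM. *LTP4* was higher at 24 h than at 6 h, with 102.7 FPKM on average at 24 h, against 32.5 FPKM at 6 h. Genes under clock control differed between 0 h and the later times. *CCA1* had 1.47, 3.68, 73.0 and 94.5 FPKM at 0, 6, 24 and 72 h, and *GRP7* 2212, 1596, 573 and 271 FPKM. The same hour of day therefore cannot be assumed at 0, 24 and 72 h, and its part in these sums was not tested. These time courses are descriptions, with no test.

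The same response was measured in *lrx345* in libraries of its own. The response of 1886 genes, 8.64% of those tested, differed between *lrx345* and the wild type in an interaction contrast (adjusted p under 0.05). This count was 1115 without replicate 1 and 1141 without the unnumbered library of WT 0 h. Of the genes raised in the wild type, 364 had a less positive and 236 a more positive response in *lrx345*, and of those lowered, 407 had a less negative and 162 a more negative one. The remaining 717 did not pass the threshold in the wild type. Both contrasts use the same wild-type libraries. Noise in these libraries moves genes picked by their wild-type change toward a weaker response in *lrx345*, so this split is no result. The same limit holds for lists that were mostly raised or lowered in the wild type. By list, 13 of 24 XTH genes had a more positive and 2 a more negative response in *lrx345* (median difference 1.2). Of 11 suberin genes, 8 had a more negative one (median -0.92), beside a median of -0.01 over all genes tested. Root cell markers shifted further. Of 9 endodermis markers, 4 had a more negative and 1 a more positive response (median -1.64). Of 10 root hair markers, 5 had a more negative and 2 a more positive response (median -1.13). The part of these markers in the suberin difference was not tested. A difference of responses does not give the level. *XTH4* had 159 FPKM at 0 h and 77.1 FPKM at 6 h on average in *lrx345*, against 553 and 124 FPKM in the wild type. *XTH15* had 32.6 and 19.9 FPKM in *lrx345*, against 51.6 and 8.55 FPKM in the wild type. None of the 21 mitotic, 8 PP2C or 9 dehydrin genes tested passed the threshold of this contrast. The same held for other lists, such as the 22 photosynthesis and 10 SnRK2 genes. Beside 8.64% of all genes tested, 0 in lists of this size is no result. Equal responses were not shown, and the median difference of the dehydrin genes was -0.34.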

How the data were processed

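RNA of 10-day-old seedlings was sequenced as paired reads in 22 libraries, of which the 3 of WT 6 h and the 2 of WT 0 h are compared here. The authors mapped the reads with TopHat2 (version not given in the sources used here) and counted uniquely placed fragments per gene with featureCounts (1.4.6), without strand, on the TAIR10 annotation, and they deposited the raw counts of 33602 genes. No column of another series was present. The study's methods name 3 replicates per sample, and the labels give 2 libraries at 0 h. The second is replicate 2 in its label and replicate 3 in the count table, so it is called unnumbered here. Depth was 10687052 to 13757123 counted fragments per library.

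Counts were fitted with edgeR (4.0.16, R 4.3.3) in its quasi-likelihood test over all 22 libraries with 8 group means, TMM factors and its default filter on low counts, which left 21831 genes, and p-values were adjusted by Benjamini-Hochberg. The SE is the log2 fold change divided by the root of the F value and is approximate. Levels in FPKM divide each count by exon length and by the TMM-scaled library size. Genes named are, in each direction, the 12 with the largest change among genes past the threshold whose groups do not overlap and whose mean count is 50 or more, the 6 nuclear genes with the largest gain and the 6 with the largest loss in FPKM, and in each of 42 lists (547 genes) up to 4 members of the smallest adjusted p. Members singled out for not passing, the members of counts of up to 5, neighbouring genes, *COR15A*, *COR15B*, *LTP3* and *XERO1* were named after their values were seen. The members and lists were chosen with earlier results of these data known. List members with too few counts (such as *AHG1*, *ABI3* and *PYL3*) were not tested. Among them, *HB-1* had no count in the compared libraries and *F3H* had 2 counts. Whether such low counts reflect low expression or the counting was not tested. A gene of the ethylene list is not reported here.

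Gene IDs were matched to the RefSeq annotation of TAIR10.1 (32835 of 33602), in which 98.6% of 120956 introns from the count table's exons have the usual end bases. Promoters were searched on both strands. On simulated counts with 200 changed genes, 96% of 2-fold and 100% of 4-fold changes were recovered, with 8.41% false calls. DESeq2 (1.42.0), other scalings, filters and thresholds, a replicate block and fits without 1 library were run as alternatives. Figures were drawn with matplotlib (3.10.9).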

Additional observations from a re-analysis of the deposited data

Results flagged for a closer look

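The response of 77 of the genes named above differed between *lrx345* and the wild type in the interaction contrast (edgeR's quasi-likelihood test, adjusted p under 0.05, beside 8.64% of all genes tested). The values in brackets are the *lrx345* response minus the wild-type response, 6 h against 0 h, on the log2 scale. These values do not give levels, which could differ between the genotypes already at 0 h. *FRO2* had 0.674 FPKM at 0 h and 0.563 FPKM at 6 h on average in *lrx345*, against 5.27 and 0.791 FPKM in the wild type. *LOX2* had 1087 and 1619 FPKM in *lrx345*, against 110 and 406 FPKM in the wild type. Differences in level were not tested. The share of named genes is no result, since the names were chosen by their response in the wild type. Both contrasts also use the same wild-type libraries.

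In the cell wall lists, the response was more positive in *lrx345* for *XTH18* (2.71), *XTH26* (2.48), *XTH15* (1.89), *XTH21* (1.57), *XTH17* (1.29) and *XTH4* (1.11) and more negative for *XTH31* (-0.91), *EXPA10* (-1.05), *EXPA17* (-1.77) and *EXPA18* (-2.14). In the wall-sensing module it was more positive for *THE1* (1.21), *RALF33* (1.13), *LRX3* (0.89) and *FER* (0.46) and more negative for *RALF1* (-0.98). *LRX3* is among the genes mutated in *lrx345*. Of the root hair and endodermis markers, *LRX2* (2.07) and *RHD6* (1.83) were more positive and *PRP3* (-2.67), *LRX1* (-2.07) and *CASP2* (-3.46) more negative.

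Suberin and wax genes were more negative in *lrx345*, with *CYP86B1* (-1.74), *ASFT* (-1.74) and *GPAT5* (-1.64) for suberin and *CER1* (-1.1) and *CER4* (-2.06) for wax. Among ABA and protective genes, *COR15B* (-1.79), *RD20* (-1.70), *CYP707A4* (-1.31) and *ABF2* (-0.48) were more negative and *CYP707A1* (1.04) and *PYL5* (0.76) more positive. Among transcription factors, *CBF1* (3.34), *DREB2A* (1.87), *HSFA6B* (1.91), *HB20* (1.65), *WRKY70* (1.57), *MYB74* (1.55), *SARD1* (1.03) and *ATAF1* (0.88) were more positive and *MYB112* (-1.63), *PAP1* (-1.32) and *HB-7* (-1.11) more negative. Of the clock genes, *CCA1* (1.12), *CHE* (0.68) and *LUX* (0.51) were more positive.

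Hormone genes with a more positive response were *IAA5* (3.21), *IAA30* (3.05), *IAA19* (3.02), *ACS7* (2.43), *ARR16* (1.56), *JAZ2* (1.4), *IAA2* (1.26), *GA2OX2* (1.18) and *AUX1* (0.48), and those with a more negative one were *LOX2* (-1.31) and *ACO4* (-0.87). Solute, water and iron genes were more positive for *FER1* (2.52), *FRO2* (2.42), *DIN10* (1.28), *TIP2;1* (1.13), *PIP1;5* (1.13), *ERD5* (1.1) and *FER3* (0.78) and more negative for *GOLS4* (-1.37) and *GOLS1* (-0.92). Of the antioxidant, chaperone and glucosinolate genes, *RBOHF* (0.49) was more positive and AT1G19230 (-0.77), *HSP70* (-0.76) and *MAM3* (-0.60) were more negative. Of the genes with large falls in the wild type, AT4G15700 (2.51), *MIOX2* (2.31), AT4G15670 (2.18), AT2G45180 (2.09), AT2G43140 (1.89), AT3G59370 (1.73), AT5G46890 (1.64) and *AZI1* (1.37) had a more positive response in *lrx345*.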

How the results depend on the processing

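Of 2107 values of the 192 genes named by rule under the alternatives, 2051 kept their direction and their side of the threshold, 54 no longer passed it, 2 came to pass it and none changed direction. The genes that lost a call under at least 1 of these other alternatives were 17 of 190. The counts of raised and lowered genes were 4202 and 4110 with DESeq2, 3769 and 5094 with upper-quartile factors, 4308 and 4139 of 28074 genes without a filter, 4090 and 4224 among genes whose mean count was 20 or more, and 4888 and 4608 in a fit of only the groups compared. With a fold change above 2 they were 1500 and 1273, and with an adjusted p under 0.01 they were 3079 and 3172. Without 1 library at a time they ran between 3035 and 4019 raised and between 3249 and 4028 lowered genes, lowest without replicate 1 of WT 0 h. The count of genes whose response differed between the genotypes, 1886, was 1023 with a fold change above 2, 963 with an adjusted p under 0.01 and between 1115 and 1677 without 1 library at a time. With the replicate number as a block, 2955 genes were raised, 2931 lowered and 1174 differed between the genotypes. That fit leaves out the unnumbered library of WT 0 h, and the samples share only a number: of 45 pairs of samples with the same number, 9 had deviations from their group means that correlated above 0.1 (median 0.05, range -0.35 to 0.25). Upper-quartile factors moved the median of all genes to -0.07. Genes with few counts at 0 h have wide intervals.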
